A study of Mus musculus with 6 samples.

Results

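The genes described here encode the metalloproteinases of the extracellular matrix and their relatives: the matrix metalloproteinases (MMPs), the ADAM and ADAMTS proteases, the ADAMTS-like (ADAMTSL) proteins and the tissue inhibitors of metalloproteinases (TIMPs). Members were picked out by gene symbol, but this choice was made with earlier results of these data known. Of the 34745 genes listed, 84 qualified: 23 MMPs, 33 ADAMs, 19 ADAMTS genes, 5 ADAMTSL genes and 4 TIMPs. They were measured by RNA sequencing of total RNA from the left ventricle of wild-type (labelled WT) male C57BL/6 mice, a common inbred strain, whose age is given as 8 weeks. Of the 6 libraries, 3 are labelled TAC (transverse aortic constriction, a ligature that narrows the aortic arch and raises the pressure load on the left ventricle) and 3 are labelled Sham (the same operation without the ligature), with tissue taken 6 weeks after surgery. The labels give neither the degree of constriction nor whether different mice stand behind the libraries of a group, so a p-value here reflects variation from library to library, which may be technical.

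MMPs are zinc-dependent endopeptidases that cut collagens, proteoglycans and other matrix proteins. ADAMs are mostly membrane-bound and release the outer parts of surface proteins, and ADAMTS proteases are secreted enzymes that process procollagens and cut large proteoglycans. ADAMTSL proteins share the ancillary domains of ADAMTS proteases but have no protease domain and bind microfibrils. TIMPs block the active sites of MMPs and of some of the other proteases. In the heart the balance between proteases and inhibitors is known to bear on scar formation and chamber dilation.

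The counts over genes summed to between 17399510 and 28401399 per library. The 10 cardiomyocyte markers summed to between 10637 and 17166 FPKM (fragment counts scaled to gene length and to library size) in every library, as the tissue label implies. Nppa, the atrial natriuretic peptide gene that is known to rise under pressure load, stood at 102.6, 72.7 and 109.2 FPKM in TAC-labelled libraries 1, 2 and 3 and at 904, 2183 and 728 FPKM in the Sham-labelled 1, 2 and 3. Its log2 difference, labelled TAC minus labelled Sham, was -3.70 (SE 0.45; adjusted p = 0.0222 in edgeR's quasi-likelihood test), and Acta1, the skeletal actin gene with the same reputation, had -3.23 (adjusted p = 0.0448). That direction goes against the labels, so the groups are called by their labels throughout and every direction below is that of the labels. On the leading axes of variation over all genes tested, which took 44.9% and 21.8% of the variance, the library labelled Sham 2 lay farthest from those labelled TAC on the former and the library labelled TAC 3 stood apart from the other 5 on the latter.

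Sequences are shown for the members on which the results turn: Timp1, the member with the largest fitted difference, Mmp23, the member that passed the test, Mmp15, the MMP with the largest estimate in the opposite direction, Adamtsl2, and for the gene cluster described further on, Mmp3 and Mmp13. Each is the 250 bases before the start site, 5′ to 3′ on the gene's strand, from RefSeq on GRCm38.p6, while the submitters' processing notes name GRCm38. Capitals mark TGAGTCA or its reverse complement TGACTCA, the motif of the transcription factor AP-1, and TATAAA, the core of the TATA box. RefSeq windows were matched by symbol for 53 of the 84 members.
Timp1: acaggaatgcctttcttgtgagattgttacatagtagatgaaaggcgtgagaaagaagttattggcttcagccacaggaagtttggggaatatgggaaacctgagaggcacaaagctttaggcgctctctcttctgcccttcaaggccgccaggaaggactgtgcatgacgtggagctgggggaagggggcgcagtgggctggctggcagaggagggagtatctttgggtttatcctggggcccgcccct
Mmp23: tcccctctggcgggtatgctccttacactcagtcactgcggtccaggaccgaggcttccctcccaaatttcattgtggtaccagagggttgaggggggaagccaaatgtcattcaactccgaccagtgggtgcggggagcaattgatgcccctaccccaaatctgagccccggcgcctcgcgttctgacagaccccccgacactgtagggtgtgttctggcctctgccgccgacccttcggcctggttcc
Mmp15: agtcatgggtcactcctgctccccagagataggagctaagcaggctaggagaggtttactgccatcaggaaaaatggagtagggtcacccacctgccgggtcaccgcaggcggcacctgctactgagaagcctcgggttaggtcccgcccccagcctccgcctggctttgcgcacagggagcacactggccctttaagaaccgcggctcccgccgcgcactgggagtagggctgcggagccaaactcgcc
Adamtsl2: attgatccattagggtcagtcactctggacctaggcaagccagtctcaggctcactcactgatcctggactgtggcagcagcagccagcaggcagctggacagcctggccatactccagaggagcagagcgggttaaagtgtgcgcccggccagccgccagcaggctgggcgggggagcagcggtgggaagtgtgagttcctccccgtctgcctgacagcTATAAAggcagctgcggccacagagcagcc
Mmp3: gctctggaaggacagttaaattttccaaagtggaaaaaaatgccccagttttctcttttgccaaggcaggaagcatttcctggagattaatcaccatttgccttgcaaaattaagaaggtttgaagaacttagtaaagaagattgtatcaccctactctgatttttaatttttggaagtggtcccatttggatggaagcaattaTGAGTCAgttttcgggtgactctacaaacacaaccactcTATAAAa
Mmp13: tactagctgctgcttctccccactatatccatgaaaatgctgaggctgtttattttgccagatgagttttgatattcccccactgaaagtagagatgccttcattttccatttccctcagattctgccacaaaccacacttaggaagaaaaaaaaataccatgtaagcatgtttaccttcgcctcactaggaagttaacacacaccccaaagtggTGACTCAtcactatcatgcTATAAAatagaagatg
These stretches lie at chrX:20869916-20870165 (plus strand) for Timp1, chr4:155653385-155653634 (minus strand) for Mmp23 and chr8:95352046-95352295 (plus strand) for Mmp15. Those of Adamtsl2, Mmp3 and Mmp13 lie at chr2:27079129-27079378, chr9:7445572-7445821 and chr9:7272264-7272513, all on the plus strand. Neither motif is found before Timp1, Mmp23 or Mmp15, which says only that these letters are not in the window. The RefSeq start of Mmp15 differs from the start of its locus in the deposited table, and those of the other 5 match. Adamtsl2 holds TATAAA at position -30 (counted from the start site, with the base before it at -1), and Mmp3 and Mmp13 hold both motifs.

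Of the 84 members, 51 had enough counts to be tested and 33 did not. 17 of the untested members had no count in any library, among them Mmp1a, Mmp1b, Mmp7 and Mmp20 of the MMPs and Adam28, a protease gene of the ADAM family. A count of 0 allows up to 3 counts, or 0.106 to 0.172 CPM (counts scaled to the total gene count) depending on the library. This limit covers counting error only. 33 members averaged at least 1 FPKM over the 6 libraries and 8 at least 10 FPKM. The 8 were Timp3, Mmp2, Timp2, Adam9, Adamts1, Mmp15, Adam10 and Timp4, which include 3 of the 4 inhibitors.

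The comparison asked which of these genes differ between the ventricles labelled TAC and Sham. Only Mmp23 passed an adjusted p of 0.05 over all genes tested, higher in the Sham-labelled libraries. That is 1 of 51 members, where 1.11% of the 15198 genes tested passed in that direction. None of the 51 passed toward the TAC-labelled libraries in edgeR's quasi-likelihood test, where 0.322% of all genes tested did, and 3 members were under an unadjusted p of 0.05 in that direction and 16 in the other. The background of these unadjusted counts was 9.56% and 11.4% of all genes tested. DESeq2 called 12 members higher in the Sham-labelled libraries and 1, Mmp15, higher in those labelled TAC, against 4.68% and 3.18% of all genes.

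In FPKM the groups did not overlap for 15 of the 51 members toward the Sham-labelled libraries (29.4%, against 18.1% of all genes tested) and for 4 toward those labelled TAC (7.84%, against 9.12%). The fitted estimate was negative, that is lower in the TAC-labelled libraries, for 33 members and positive for 18, with a median log2 difference of -0.20 beside 0.01 over all genes tested. The medians were -0.68 for 12 tested MMPs, -0.51 for the 4 TIMPs, -0.21 for 16 ADAMTS genes, -0.18 for the 5 ADAMTSL genes and -0.02 for 14 ADAMs. These are descriptions of the members that had enough counts. In bulk tissue, fewer cells of a type and less RNA per cell cannot be told apart.

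**Figure D1:**
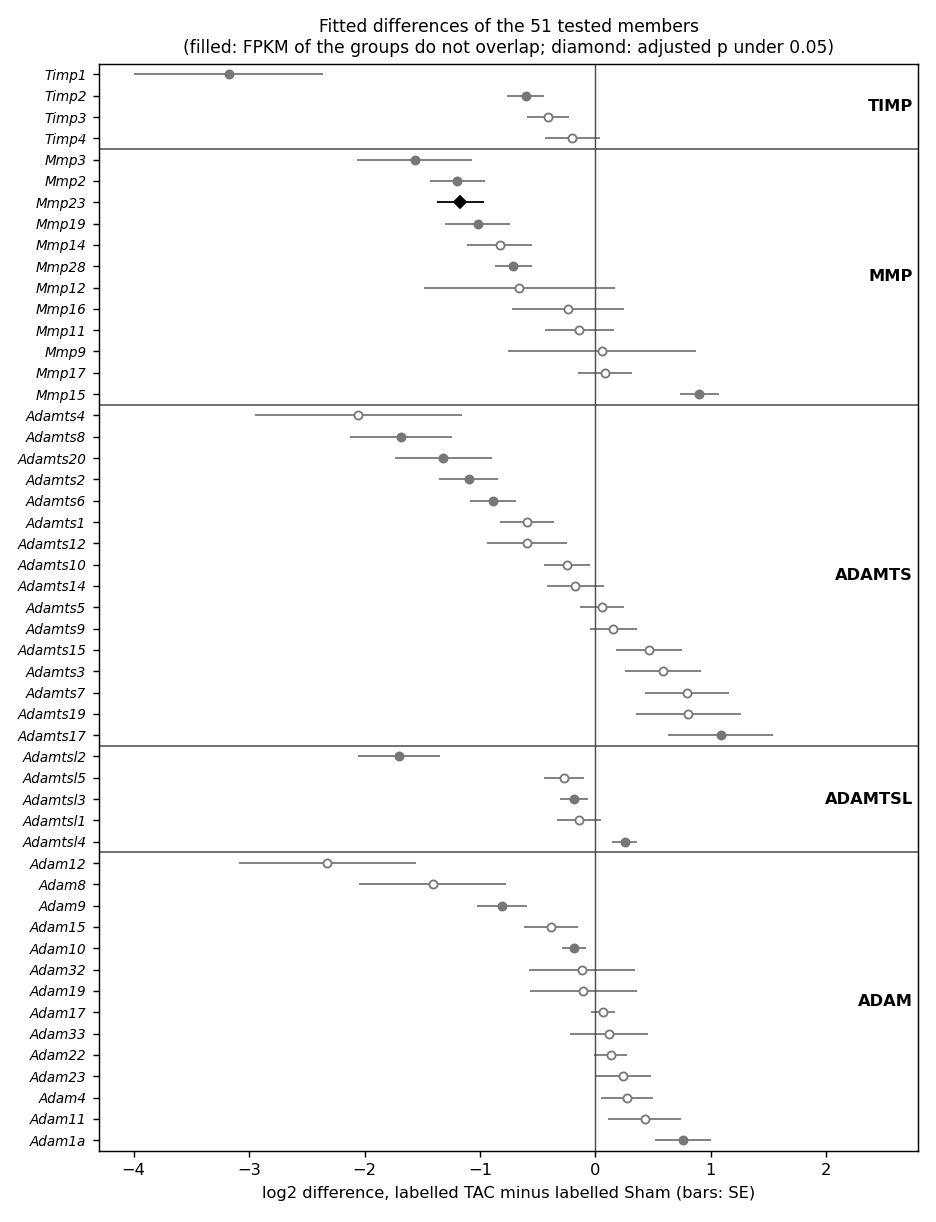
Fitted log2 difference (labelled TAC minus labelled Sham, x axis) of each of the 51 tested members, grouped by family, with bars of 1 SE (n = 3 libraries per group). Filled symbols are members whose FPKM do not overlap between the groups, and the diamond is Mmp23, the member with an adjusted p under 0.05; Timp1 lies farthest left at -3.18 and Mmp15 is the filled MMP on the right at 0.90.

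Markers of several cell types, from lists drawn up with earlier results of these data known, differed along with the members. Toward the Sham-labelled libraries, FPKM groups did not overlap for 18.1% of all genes tested (toward those labelled TAC, 9.12%). An unadjusted p under 0.05 was reached by 11.4% and 9.56% in those directions, edgeR called 1.11% and 0.322%, and DESeq2 4.68% and 3.18%. All 10 macrophage markers were higher in every library labelled Sham than in any labelled TAC, and in edgeR none of them passed (7 were under an unadjusted p of 0.05 and DESeq2 called 2). Their summed level was 89.5 to 159 FPKM in the TAC-labelled libraries and 208 to 221 FPKM in the Sham-labelled ones. The 10 general fibroblast markers summed to 402 to 518 FPKM against 675 to 822 FPKM, with 2 of 10 past the threshold. Those of activated fibroblasts summed to 84.2 to 152 FPKM against 299 to 542 FPKM, with 6 of 10 past it, among them Postn (periostin) and Cthrc1. Acta2, the smooth muscle actin gene of that list, had the opposite sign, at 95.7, 106.2 and 58.6 FPKM in the TAC-labelled libraries and 64.6, 47.8 and 54.3 FPKM in the Sham-labelled ones (log2 difference 0.71, adjusted p = 0.145 in edgeR). DESeq2 called it higher in the former. Pericyte and smooth muscle markers summed to 679 to 843 FPKM against 930 to 1357 FPKM, with none of 10 past the threshold in edgeR. Des was the largest of them in every library, at 409, 352 and 470 FPKM against 611, 995 and 627 FPKM, and dominated that gap. Rgs5, the next largest, had groups that overlapped, at 180, 208 and 252 FPKM against 229, 242 and 185 FPKM. Endothelial markers summed to 160 to 170 FPKM against 152 to 181 FPKM, with none of 10 past the threshold in edgeR. Of the pericyte and smooth muscle estimates 7 were below 0 and 3 above. An unadjusted p under 0.05 was reached by 6 toward the Sham-labelled libraries and by 1, Abcc9, toward those labelled TAC (log2 difference 0.67). DESeq2 called 3 and 1 in those directions. Among the endothelial markers only Kdr was under that unadjusted p, toward the TAC-labelled libraries (log2 difference 0.56), and DESeq2 called 1 in that direction. The 10 cardiomyocyte markers went mostly the other way, with 9 of 10 estimates above 0, a median log2 difference of 0.35 and sums of 12015 to 17166 FPKM in the TAC-labelled libraries against 10637 to 13349 FPKM. None of them passed in edgeR, 6 were under an unadjusted p of 0.05, and DESeq2 called 3. No marker in these 6 lists was at 0 in all libraries. The part of cell composition in the differences of Timp1, Mmp2, Mmp23 and the other members was not tested.

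Among the inhibitors, all 4 TIMPs had an estimate below 0, and over all genes none passed in edgeR (2 were under an unadjusted p of 0.05, Timp1 and Timp2, which DESeq2 called). Toward the Sham-labelled libraries 11.4% of all genes tested were under that unadjusted p, and DESeq2 called 4.68%. Without the library labelled Sham 2 the estimate of Timp4 was 0.07. Timp1, the inducible inhibitor that is low in the resting heart, had 3.16, 1.40 and 0.328 FPKM in TAC-labelled libraries 1, 2 and 3 and 4.20, 15.6 and 27.9 FPKM in the Sham-labelled 1, 2 and 3. The groups did not overlap, but the library labelled Sham 1 lay close to TAC 1 and far below the other 2 libraries of its own group. The log2 difference was -3.18 (SE 0.82), 9.05-fold, with adjusted p = 0.0991 in edgeR. Without the library labelled Sham 1 it was -3.63 and passed (adjusted p = 0.0494), while the other 5 omissions gave adjusted p from 0.144 to 0.248. The size rested on single libraries, with -4.11 without TAC 1 and -2.56 without Sham 3.

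Timp2, which besides inhibiting MMPs takes part in the activation of pro-MMP-2 at the cell surface, had 16.0, 18.5 and 15 FPKM in the TAC-labelled libraries and 28, 29.0 and 21.5 FPKM in the Sham-labelled ones. All 3 libraries labelled Sham were above all 3 labelled TAC (log2 difference -0.60, SE 0.16, adjusted p = 0.105 in edgeR). Timp3, the inhibitor that binds the matrix and also blocks ADAM17, was the most abundant member of all, at 40.2, 52.3 and 63.3 FPKM against 79.8, 73.2 and 62.2 FPKM. Its groups met at the library labelled TAC 3, which lay just above Sham 3 (log2 difference -0.41, SE 0.18, adjusted p = 0.252). Timp4, the TIMP known for its expression in the heart, was at 11, 9.05 and 13.0 FPKM against 12.7, 17.2 and 9.44 FPKM, with groups that overlapped and an adjusted p of 0.679.

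Timp1 made up 4.49%, 1.73% and 0.359% of the summed TIMP FPKM in TAC-labelled libraries 1, 2 and 3, and 3.37%, 11.6% and 23.0% in the Sham-labelled 1, 2 and 3. The means were 2.19% ± 2.10 and 12.7% ± 9.88 (SD, n = 3 each), and the shares overlapped, since TAC 1 was above Sham 1. A two-sided exact permutation test gave p = 0.2, where 3 against 3 libraries allow no p under 0.1. The difference of -10.5 percentage points was -5.28 without the library labelled Sham 3, -15.1 without Sham 1 and -2.31 when counts took the place of FPKM. Timp3 stayed the largest component in every library, between 51.4% and 69.1%. Summed over the 4 genes, TIMP transcripts were at 81.0 ± 10.6 FPKM in the TAC-labelled libraries and 127 ± 7.26 FPKM in the Sham-labelled ones (SD, n = 3), and the sums of the groups did not overlap.

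**Figure D2:**
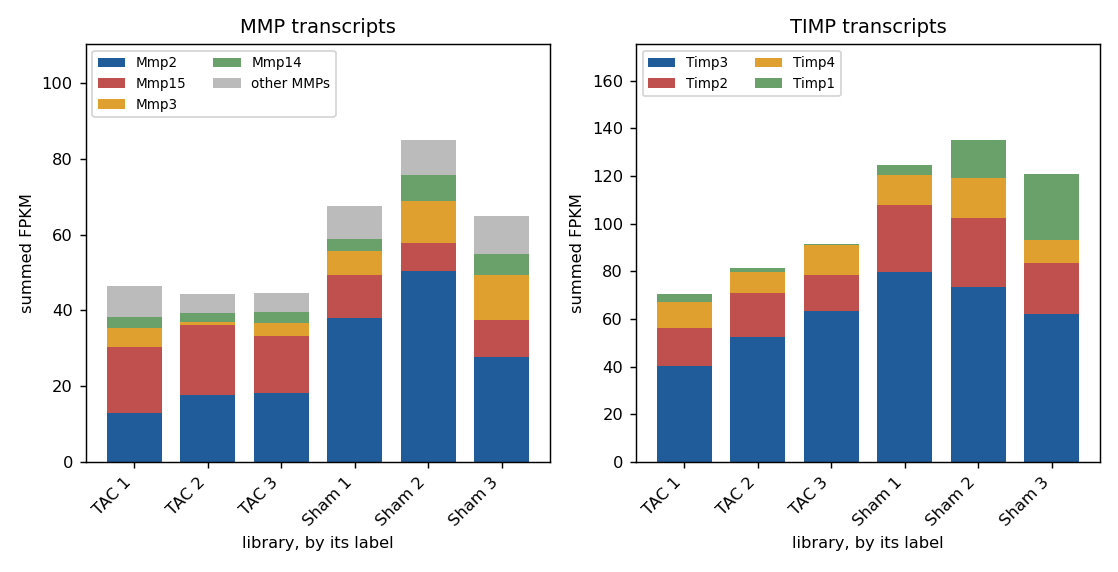
Summed FPKM (y axis) of MMP transcripts (left) and TIMP transcripts (right) in each library, named by its label, with the main genes stacked from 0. Mmp2 is the largest MMP component in all 3 libraries labelled Sham and Mmp15 in 2 of the 3 labelled TAC, and Timp1 is visible mainly in libraries Sham 2 and Sham 3.

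3 of the 4 inhibitors share a feature of position. In the deposited annotation Timp1 (chromosome X, 20870166 to 20874735), Timp3 (chromosome 10, 86300372 to 86349506) and Timp4 (chromosome 6, 115241892 to 115252205) each lie inside a gene of the synapsin family, Syn1, Syn3 and Syn2 in that order. Synapsins coat synaptic vesicles of neurons. RefSeq places Timp1 and Timp4 on the strand opposite to their hosts. Over the 6 libraries Syn1 held 20 counts against 1547 for Timp1, Syn3 138 against 72040 for Timp3, and Syn2 839 against 9892 for Timp4. Because no source used here gives the strand setting of the counting, reads of a host and its guest could not be told apart. The hosts' counts were below those of the inhibitors, which does not measure how many host reads the inhibitors' counts hold.

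The MMPs as a family summed to 45.1 ± 1.11 FPKM in the TAC-labelled libraries and 72.5 ± 10.8 FPKM in the Sham-labelled ones (SD, n = 3), again without overlap. The sum was carried by a few genes, whose estimates differed in sign. Mmp2 (chromosome 8, 92827328 to 92853417), which encodes gelatinase A, a protease of denatured and type IV collagen, had 13.0, 17.6 and 18.3 FPKM in the TAC-labelled libraries and 37.9, 50.4 and 27.7 FPKM in the Sham-labelled ones. The groups stood apart with no library between them, and its edgeR adjusted p was 0.0587 (log2 difference -1.20, SE 0.24). It passed with DESeq2, without the filter on low counts, with limma on log2(FPKM + 0.1) and with library totals unscaled by TMM.

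Mmp15 (chromosome 8, 95352268 to 95374293), which encodes the membrane-anchored MT2-MMP, went the other way. Its levels were 17.4, 18.4 and 14.8 FPKM in the TAC-labelled libraries and 11.3, 7.47 and 9.65 FPKM in the Sham-labelled ones. Every library labelled TAC was above every library labelled Sham (log2 difference 0.90, SE 0.17, 1.87-fold, adjusted p = 0.0505 in edgeR, 0.0497 with median-of-ratios scaling and 0.000254 with DESeq2). Without the library labelled Sham 1 the adjusted p was 0.0393, and the other 5 omissions gave 0.0775 to 0.155. Of the 8 members that averaged at least 10 FPKM, it was the one with a positive estimate.

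The make-up of the MMP transcripts differed between the labelled groups, a contrast picked out after the values were seen and therefore given without a test. Mmp15 was 37.5%, 41.6% and 33.3% of the summed MMP FPKM in TAC-labelled libraries 1, 2 and 3, and 16.8%, 8.79% and 14.8% in the Sham-labelled ones. Mmp2 was 28%, 39.7% and 41.1% in the former and 56.2%, 59.4% and 42.6% in the latter. Mmp15 exceeded Mmp2 in the libraries TAC 1 and TAC 2, and Mmp2 was above Mmp15 in the other 4.

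MMP and TIMP sums were also set against each other in each library. The ratio of summed MMP FPKM to summed TIMP FPKM was 0.659, 0.546 and 0.487 in the TAC-labelled libraries and 0.541, 0.629 and 0.538 in the Sham-labelled ones. The means were 0.564 ± 0.0874 and 0.569 ± 0.0517 (SD, n = 3), a difference smaller than the spread between libraries (two-sided exact permutation p = 1). Leaving Mmp2 out of the sum gave 0.363 ± 0.0984 and 0.267 ± 0.0373 (exact p = 0.2). Transcript sums say nothing of enzyme activity, since most of these proteases are made as inactive proenzymes.

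Mmp23, a small membrane-anchored MMP without the usual haemopexin domain (chromosome 4, 155650655 to 155653384), was the member past the threshold. It had 0.956, 0.743 and 0.880 FPKM in the TAC-labelled libraries and 2.11, 2.22 and 1.71 FPKM in the Sham-labelled ones, with narrow spreads in both groups and a clear gap between them. The log2 difference was -1.17 (SE 0.20), 2.25-fold, with adjusted p = 0.0448 in edgeR. Leaving out any 1 of the 6 libraries ended the call, with adjusted p from 0.0578 to 0.136 and log2 differences from -1.29 to -1.07.

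Mmp14, the membrane-anchored MT1-MMP that activates pro-MMP-2, had 3.11, 2.29 and 2.86 FPKM in the TAC-labelled libraries and 3.07, 6.76 and 5.50 FPKM in the Sham-labelled ones. The library labelled Sham 1 lay among the TAC-labelled libraries, and the adjusted p was 0.158 (log2 difference -0.83, SE 0.28), or 0.0448 without Sham 1 (log2 difference -1.09). The other 5 omissions gave adjusted p from 0.237 to 0.408, with a log2 difference of -0.54 without Sham 2. Mmp3, stromelysin-1, was at 4.92, 0.997 and 3.57 FPKM against 6.49, 11.1 and 12.0 FPKM. Its groups did not overlap, with the library labelled TAC 2 lowest (log2 difference -1.57, SE 0.50, adjusted p = 0.141).

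Mmp19, a secreted MMP, had 1.51, 1.01 and 0.918 FPKM in the TAC-labelled libraries and 1.85, 2.19 and 3.34 FPKM in the Sham-labelled ones (log2 difference -1.02, SE 0.28, adjusted p = 0.112). Mmp28, the secreted enzyme epilysin, had 1.06, 1.37 and 1.33 FPKM against 2.04, 2.37 and 2.0 FPKM (log2 difference -0.71, SE 0.16, adjusted p = 0.0764). Both were apart by label in every library, and neither passed over all genes. The other tested MMPs, Mmp9, Mmp11, Mmp12, Mmp16 and Mmp17, all had groups that overlapped, and their adjusted p-values were at least 0.697. They include Mmp9, gelatinase B, which is made in quantity by neutrophils.

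Mmp9 and the neutrophil collagenase gene Mmp8, named here after their values were seen, each had their highest TAC value in the library labelled TAC 1. Mmp8 had 65, 8 and 1 counts in TAC-labelled libraries 1, 2 and 3 and 5, 7 and 15 counts in the Sham-labelled ones, too few for the test. Mmp9 had 0.755, 0.215 and 0.115 FPKM in the former and 0.295, 0.107 and 0.758 FPKM in the latter. The 10 neutrophil markers summed to 21.2 FPKM in the library labelled TAC 1, to 4.20 and 0.718 FPKM in those labelled TAC 2 and TAC 3 and to between 1.88 and 3.42 FPKM in the Sham-labelled ones. Of these markers Mpo, Elane and Camp had no count in any library, and the part of neutrophil RNA in the Mmp8 and Mmp9 values was not tested. Without the library labelled TAC 1 the log2 difference of Mmp9 was -1.10 in place of 0.05, and without Sham 3 it was 0.94.

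10 of the 23 MMP genes lie in a cluster on chromosome 9 that spans 427 kb (7272514 to 7699585 on GRCm38), with the collagenases, stromelysins and matrilysin that are known to be induced in inflamed tissue. In the ventricle this cluster was nearly silent except for Mmp3. 4 of the 10 had no count, the other 5 reached at most 1.23 FPKM in any library, and 2 of the 10, Mmp3 and Mmp12, had enough counts to be tested. The promoters shown for Mmp3 and Mmp13 carry the feature that most genes of the cluster share. TGAGTCA, searched on both strands in windows of 300 bases from 250 before to 50 after the start site, was found in the windows of 7 of the 10 cluster genes, and in 5.20% of all 32851 RefSeq windows. Of the 43 members outside the cluster that have a window, 3 held it (Adam1b, Adam19 and Adam29). None of the 8 MMPs among those 43 did, and the MMPs without a window were not searched. TATAAA, searched in the same way, was found in 9 of the 10 and in 13.6% of all windows. A match is a description of the letters and not evidence of binding, and Mmp3 shares both motifs with neighbours such as Mmp1a and Mmp10 that had 0 and at most 2 counts per library.

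**Figure D3:**
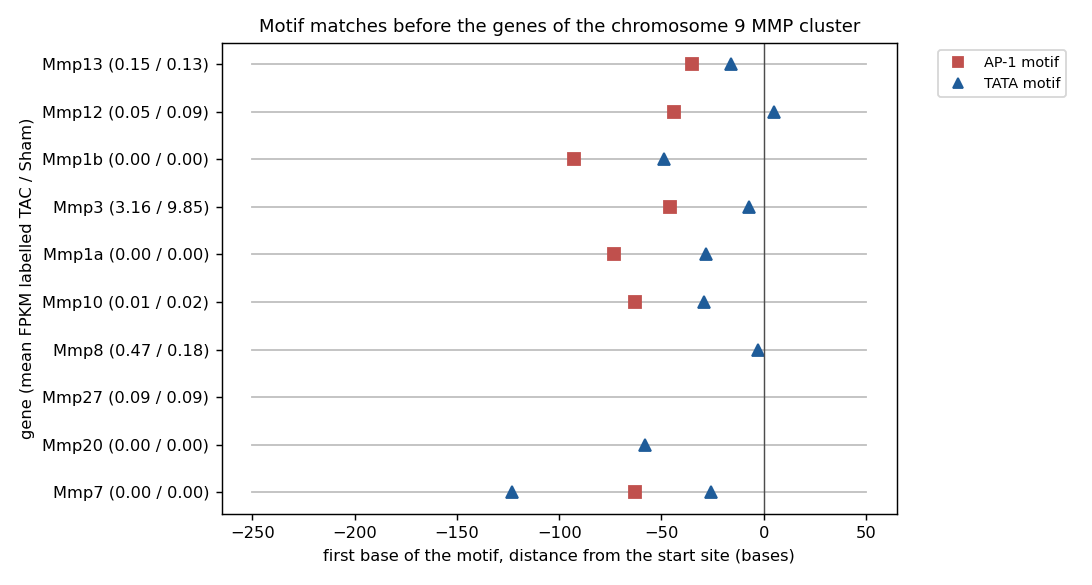
Position of AP-1 motif (squares) and TATA motif (triangles) matches relative to the start site (x axis, bases) for the 10 MMP genes of the chromosome 9 cluster, in chromosome order, with the mean FPKM of the TAC-labelled and of the Sham-labelled libraries beside each name. Grey lines are the windows searched; 7 of the 10 genes have a square, and Mmp3 is the gene with a mean above 1 FPKM.

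The ADAMTS family had estimates of both signs. Its transcripts summed to 45.1 ± 4.09 FPKM in the TAC-labelled libraries and 57.5 ± 9.66 FPKM in the Sham-labelled ones (SD, n = 3), with sums that overlapped. None of 16 tested genes passed in edgeR. An unadjusted p under 0.05 was reached by 5 toward the Sham-labelled libraries and 1 toward those labelled TAC. Of all genes tested, 11.4% and 9.56% did so. DESeq2 called 3 (Adamts2, Adamts6 and Adamts8) in the former direction, where it called 4.68% of all genes. Of the 16, 9 had a lower and 7 a higher estimate in the TAC-labelled libraries. The 7 include Adamts17, with the largest estimate of any member in that direction (log2 difference 1.09, SE 0.45, adjusted p = 0.225 in edgeR). It had 0.0813, 0.211 and 0.0928 FPKM in the TAC-labelled libraries and 0.0801, 0.0550 and 0.0528 FPKM in the Sham-labelled ones. In counts these were 19, 46 and 20 against 18, 17 and 10. Its groups did not overlap, but TAC 1 lay barely above Sham 1. The estimate rests on values near 0, with TAC 2 well above the rest. Adamts2 and Adamts3, both procollagen N-proteinases, which trim the amino end of fibrillar procollagens, had estimates of opposite sign. Adamts2 had 3.10, 4.63 and 2.78 FPKM in the TAC-labelled libraries and 5.96, 10.1 and 7.35 FPKM in the Sham-labelled ones, without overlap (log2 difference -1.10, SE 0.26, adjusted p = 0.0813 in edgeR). Adamts3 had 2.71, 3.17 and 1.42 FPKM against 2.17, 1.17 and 1.76 FPKM, and its groups overlapped (log2 difference 0.59, SE 0.33, adjusted p = 0.353). Whether the 2 genes differ from each other in their response was not tested. Adamts14, the remaining member of this group, stayed under 0.4 FPKM in every library.

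Adamts6, a secreted protease with a role in heart development, had 2.39, 2.77 and 1.76 FPKM in the TAC-labelled libraries and 3.87, 5.05 and 4.49 FPKM in the Sham-labelled ones (log2 difference -0.89, SE 0.20, adjusted p = 0.0711). Adamts8 had 0.289, 0.426 and 0.144 FPKM against 0.560, 1.33 and 0.983 FPKM (log2 difference -1.68, SE 0.44, adjusted p = 0.105). In both genes every library labelled Sham was above every library labelled TAC. Adamts10, related to Adamts6 in sequence, had groups that overlapped (adjusted p = 0.534).

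Proteases that cut versican and aggrecan, the large proteoglycans, were the most abundant ADAMTS group, led by Adamts1, Adamts5 and Adamts9. Adamts1 had 11.5, 8.42 and 11.9 FPKM in the TAC-labelled libraries and 11.2, 18.5 and 20.6 FPKM in the Sham-labelled ones, with Sham 1 among the TAC-labelled libraries (log2 difference -0.59, SE 0.23, adjusted p = 0.203). Adamts5 averaged 8.15 ± 1.91 and 8.20 ± 1.04 FPKM (SD, n = 3), and Adamts9 6.61 ± 0.858 and 6.22 ± 1.68 FPKM. For Adamts5 and Adamts9 the difference was smaller than the spread between libraries, and its sign changed with the setting.

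Adamts7 and Adamts12, which cut cartilage oligomeric matrix protein, had estimates of opposite sign. Adamts7 had 2.67, 3.0 and 1.43 FPKM in the TAC-labelled libraries and 1.83, 0.784 and 1.71 FPKM in the Sham-labelled ones (log2 difference 0.79, SE 0.36, adjusted p = 0.262). It overlaps Tbc1d2b, which had more counts (4127 against 2732). Adamts12 had 1.11, 1.35 and 0.672 FPKM against 1.03, 2.26 and 1.62 FPKM (log2 difference -0.59, SE 0.35, adjusted p = 0.375). Both had groups that overlapped.

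Of the 5 ADAMTSL genes none passed in edgeR, and 1, Adamtsl2, was under an unadjusted p of 0.05 and called by DESeq2. Toward the Sham-labelled libraries 11.4% of all genes tested were under that unadjusted p, and DESeq2 called 4.68%. Adamtsl2 (chromosome 2, 27079379 to 27108981) encodes a microfibril-binding protein whose loss is known to cause geleophysic dysplasia. It had 1.17, 2.91 and 2.43 FPKM in the TAC-labelled libraries and 6.48, 9.93 and 5.47 FPKM in the Sham-labelled ones. No library lay between the groups. The log2 difference was -1.70 (SE 0.36), 3.25-fold, with adjusted p = 0.0628 in edgeR and 6.41e-05 with DESeq2. The more abundant Adamtsl5 and Adamtsl4 differed little. Adamtsl5 averaged 6.38 ± 1.42 and 8.10 ± 0.627 FPKM (SD, n = 3; log2 difference -0.28, adjusted p = 0.407). Adamtsl4 was at 6.86, 7.18 and 6.27 FPKM against 5.87, 6.07 and 5.86 FPKM, apart by label but by a small step (log2 difference 0.25, SE 0.11, adjusted p = 0.240).

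**Figure D4:**
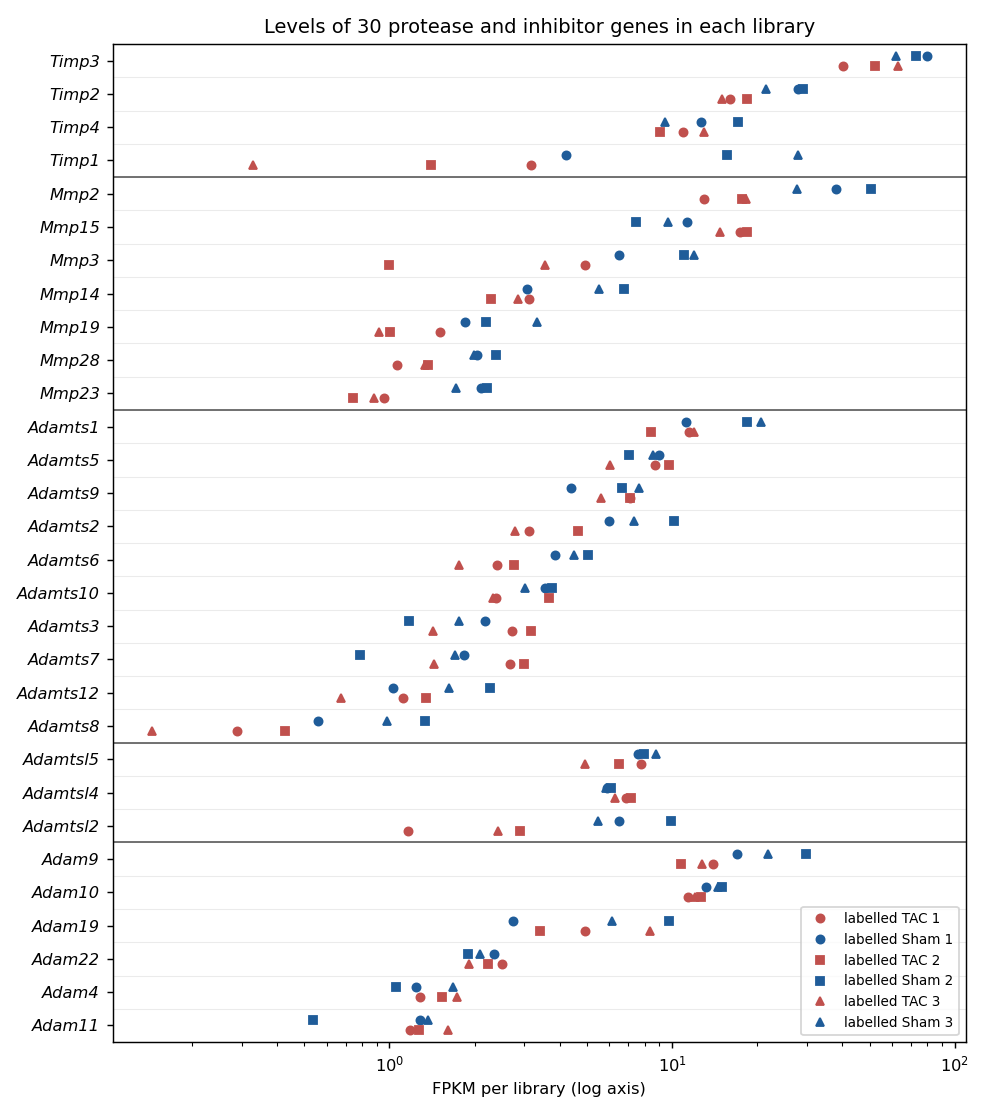
FPKM on a log axis in each of the 6 libraries for the 30 named members, grouped by family and ordered by mean level, with red symbols for libraries labelled TAC and blue for the Sham-labelled ones, and 1 shape per replicate number (which pairs no libraries). Mmp15 is the abundant MMP whose red symbols lie to the right, and Timp1 spans from 0.328 to 27.9 FPKM.

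The ADAM family had the median difference nearest 0. Of its 33 genes, 13 had no count in any library and 14 were tested, of which 7 had a lower and 7 a higher estimate in the TAC-labelled libraries. None passed in edgeR. An unadjusted p under 0.05 was reached by 2 toward the Sham-labelled libraries and 1 toward those labelled TAC. Of all genes tested, 11.4% and 9.56% did so. DESeq2 called 1, Adam9, in the former direction, where it called 4.68% of all genes. Adam9 (chromosome 8, 24949611 to 25016922), a widely expressed sheddase, had 13.9, 10.7 and 12.7 FPKM in the TAC-labelled libraries and 16.9, 29.7 and 21.8 FPKM in the Sham-labelled ones, without overlap (log2 difference -0.81, SE 0.22, adjusted p = 0.107 in edgeR). Adam10, the main Notch sheddase, was at 11.4, 12.7 and 12.1 FPKM against 13.2, 15.1 and 14.6 FPKM. Its groups did not overlap either, but the step was small (log2 difference -0.18, SE 0.10, adjusted p = 0.354).

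Adam17, described here for its role as the TNF-converting enzyme, averaged 5.28 ± 0.175 and 5.28 ± 0.485 FPKM (SD, n = 3; log2 difference 0.07, SE 0.10, adjusted p = 0.763), so no difference was detected. Adam19 had 4.94, 3.41 and 8.37 FPKM in the TAC-labelled libraries and 2.74, 9.74 and 6.14 FPKM in the Sham-labelled ones, so its values scattered within both groups (adjusted p = 0.921). Adam12, a protease gene raised in fibrotic tissue and named after its values were seen, had 0.200, 0.0751 and 0.0685 FPKM against 0.124, 0.523 and 1.21 FPKM. Like Timp1 and Mmp14 it was high in libraries Sham 2 and 3 and close to the TAC range in Sham 1 (log2 difference -2.32, SE 0.77, adjusted p = 0.153). It was -1.47 without Sham 3 and -3.02 without TAC 1. Adam15, which encodes metargidin, had 4.51, 4.10 and 3.89 against 3.81, 7.58 and 5.61 FPKM and groups that overlapped (adjusted p = 0.397).

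Adam11, Adam22 and Adam23, ADAMs without protease activity that are known from the nervous system, all had positive estimates between 0.13 and 0.43 and groups that overlapped. Of the mostly testis-specific ADAMs, 12 of 21 had no count. Adam4 averaged 1.52 ± 0.226 and 1.32 ± 0.319 FPKM (SD, n = 3), but it lies inside Cox16, which held 1736 counts against 444, so its reads are uncertain. Adam1a had 0.998, 1.07 and 1.63 against 0.706, 0.806 and 0.756 FPKM, higher in every library labelled TAC than in any labelled Sham (log2 difference 0.76, SE 0.24, adjusted p = 0.140), but Gm42878 overlaps it with 3091 counts against 440. Over all tested members, 19 of 51 overlapped another gene in the table, and in 4 the other gene had more counts.

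Activators, inhibitors and partners of these proteases were described from lists drawn up with earlier results known. Of all genes tested, 1.11% passed in edgeR toward the Sham-labelled libraries. Lrp1, the endocytic receptor that clears MMPs and TIMPs from the matrix, was the gene past the threshold among 8 tested regulators of MMPs and proprotein convertases. It had 20.7, 21.3 and 19.2 FPKM in the TAC-labelled libraries and 40.4, 52.5 and 38.5 FPKM in the Sham-labelled ones (log2 difference -1.04, SE 0.16, adjusted p = 0.0346 in edgeR). Reck, a membrane-anchored inhibitor of MMPs, had 1.20, 1.38 and 1.28 FPKM against 2.52, 2.12 and 2.08 FPKM (adjusted p = 0.0566). Pcsk5, a proprotein convertase, had an adjusted p of 0.196. The median over this list was -0.30.

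Of 8 tested partners of ADAM10 and ADAM17, Tspan17, a tetraspanin that binds ADAM10, passed. It had 0.997, 0.721 and 0.975 FPKM in the TAC-labelled libraries and 1.94, 2.25 and 1.89 FPKM in the Sham-labelled ones (log2 difference -1.11, SE 0.20, adjusted p = 0.0488 in edgeR). Rhbdf1, the iRhom gene that helps ADAM17 to the cell surface, and Tspan5 did not pass (adjusted p = 0.152 and 0.208). Calls of Lrp1 and Tspan17 were lost with some libraries left out: Lrp1 without any 1 except Sham 1, and Tspan17 without any 1 of the 6.

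In the plasminogen system, none of 6 tested genes passed and all 6 had an estimate below 0 (median -0.74). Unadjusted p was under 0.05 for 3 of them, and DESeq2 called 2, against 11.4% and 4.68% of all genes tested in that direction. Serpine2 (adjusted p = 0.0700) and Plat, the tissue plasminogen activator gene (adjusted p = 0.175), had log2 differences of -1.07 and -0.82. None of 5 tested astacin proteases and procollagen enhancers passed (median -0.72), with 4 under an unadjusted p of 0.05 and 2 called by DESeq2. Pcolce and Pcolce2, which speed the trimming of the carboxyl end of procollagen by BMP1, had log2 differences of -1.14 and -0.78 (adjusted p = 0.0830 and 0.0969), and Bmp1 itself -0.44 (adjusted p = 0.160).

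Toward the Sham-labelled libraries, 11.4% of all genes tested were under an unadjusted p of 0.05 and DESeq2 called 4.68%. Of 11 tested cathepsins, 4 were under an unadjusted p of 0.05 and DESeq2 called 3, all in that direction. None passed in edgeR (median -0.26), with Ctsz, Ctsk and Ctss nearest at adjusted p = 0.0528, 0.0535 and 0.0672 and log2 differences of -0.93, -1.41 and -1.04. Among 16 tested substrates of ADAM sheddases none passed in edgeR either (median -0.56), while 8 were under an unadjusted p of 0.05 and DESeq2 called 4. Cx3cl1, the membrane-bound chemokine fractalkine, Sdc1, a shed syndecan, and Ereg, the EGF-family ligand epiregulin, had log2 differences of -1.11, -1.06 and -4.68 (adjusted p = 0.0563, 0.0578 and 0.0606). Ereg was at 0.101, 0.0241 and 0.0122 FPKM in the TAC-labelled libraries and 0.235, 2.11 and 1.53 FPKM in the Sham-labelled ones, so its large ratio rests on values near 0. Its log2 difference was -6.00 without TAC 1 and -4.07 without Sham 2. Without Sham 1, Ereg and Sdc1 passed (adjusted p = 0.0242 and 0.0433 in edgeR), and with any other library left out Ereg did not (0.123 to 0.161).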

How the data were processed

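Left ventricular RNA was sequenced in 6 libraries, and columns were matched to libraries through the description label. No value column lacked a library. HISAT2 2.0.4, StringTie 1.3.0 and GRCm38 are listed in the submitters' processing notes, and the counting program, strand setting, annotation version and filters are not stated there. The authors deposited counts as whole numbers for each gene. The FPKM values were also deposited by the authors, and they equal the count scaled to a single gene length and to the sum of gene counts in that library. The deposited lncRNA table was not used here.

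Counts were tested with edgeR 4.0.16 quasi-likelihood in R 4.3.3, with TMM scaling, filterByExpr (minimum count of 10), no block and Benjamini-Hochberg adjustment over 15198 genes, at an adjusted p of 0.05. Each SE was obtained from the log2 difference and the F statistic. Levels are FPKM, which TMM does not scale (TMM factors ran from 0.963 to 1.06). The Timp1 share of summed TIMP FPKM and the ratio of MMP to TIMP sums were compared by exact permutation. The summed FPKM themselves were not tested. The alternatives were median-of-ratios scaling, totals without TMM (added after seeing the data), no filter and a mean of at least 50 counts, DESeq2 1.42.0, limma 3.58.1 on log2(FPKM + 0.1) and log2(FPKM + 1), a replicate block and each library left out. The scripts were tested on simulated data.

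Members, gene lists and tests were chosen with earlier results of these data known. Named members are those past the threshold, the 4 TIMPs, the 3 most abundant of each subfamily at a mean of at least 1 FPKM and the 12 with the smallest p. From each pathway list every gene past the threshold and the 3 with the smallest p are named. Some results that these rules would name are not reported here. Any other member described was added with its values known. Replicate libraries differed from one another by far more than counting noise (chi-square per gene 16.7 or above).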

Additional observations from a re-analysis of the deposited data

How the results depend on the processing

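The single member called higher in the libraries labelled Sham became 3 with library totals unscaled by TMM, 5 without a filter on low counts, 12 with DESeq2, 2 with limma on log2(FPKM + 0.1) and 0 under a block for replicate number. It ran from 0 to 2 with 1 library left out. The count toward the libraries labelled TAC, 0 by edgeR, became 1 with median-of-ratios scaling, without a filter and with DESeq2, Mmp15 each time, and ran from 0 to 1 with 1 library left out. Fits without a library or with a block have fewer residual degrees of freedom. The calls over all genes went from 217 to 1195 with DESeq2, 338 without TMM, 432 without a filter and 41 with the block, and to between 0 (without TAC 1) and 397 (without Sham 1) with 1 library left out. Without TMM 87.6% of them were higher in the libraries labelled Sham, against 77.4%, and with DESeq2 59.6%.

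The replicate numbers did not pair the libraries: same-numbered libraries correlated at -0.136, -0.118 and -0.0959 in their deviations from the group means. With the replicate block Mmp23 had a log2 difference of -1.16 and adjusted p = 0.120, and Lrp1 and Tspan17 were at adjusted p = 0.0738 and 0.138.

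The median over the tested members stayed between -0.26 and -0.15 in every setting. Of 54 named genes, 48 kept the sign of their estimate in every setting that gave one. Adamts5 went from 0.06 to -0.00821 without TMM and to -0.0290 and -0.0241 with limma at pseudocounts of 0.1 and 1, Mmp9 from 0.05 to -0.0379, -0.0920 and -0.0279, and Adam17 to -0.000332 without TMM. Adam19 went from -0.10 to 0.0145 with the block. With 1 library left out Adam19 ran from -0.50 to 0.42, Adamts5 from -0.0822 to 0.246, Adamts9 from -0.0394 to 0.30, Timp4 from -0.408 to 0.0688 and Mmp9 from -1.10 to 0.94. The difference in the ratio of MMP to TIMP sums (-0.00560) was 0.0963 without Mmp2 and ran from -0.0530 to 0.0330 with 1 library left out. The causes were not tested.

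Depth limits what can be said of the 33 untested members, whose counts reached at most 65 in any library.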
